A study of Arabidopsis thaliana with 12 samples.

Results

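The comparison described here is that of *CRR*-overexpressing roots (CRR OE) with wild-type Col-0 roots when phosphate was sufficient (+Pi). Its means rest on 6 of the 12 libraries of the series, 3 of CRR OE +Pi and 3 of Col-0 +Pi, and its spread on all 12. It covers all 19802 genes of the deposited expression table. Both groups had the Col-0 background of *Arabidopsis thaliana* and were grown for 7 days on agar plates of dilute Murashige and Skoog salts with sucrose, with 1 mM phosphate added. CRR OE carries a CRR-GFP fusion driven by the CaMV *35S* promoter, which is active in most plant tissues, and the labels distinguish no separate lines of it, so that the transgene, its insertion site and the history of the line cannot be told apart. Each library was made from the pooled roots of several seedlings. The remaining 6 libraries came from the same genotypes on plates without added phosphate (–Pi).

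CRR belongs to the CYBDOM proteins, plasma membrane proteins with a cytochrome b561 core and a DOMON domain that carry electrons from cytosolic ascorbate across the membrane. In roots, the outer face of the membrane is where ferric iron is reduced before uptake, and iron in the apoplast takes part in the arrest of primary root growth when phosphate is low. A shoot or root with ample phosphate keeps the phosphate starvation genes low, and a root supplied with sugar keeps low the genes that are induced in darkness, which release carbon and nitrogen from amino acids and storage sugars. The comparison in +Pi asks which genes differed between the lines where no phosphate stress was applied.

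The 2 lines differed at few genes in +Pi. With an adjusted p under 0.05 required together with a log2 difference of 1 or more in either direction, 15 genes were higher and 16 lower in CRR OE (0.0757% and 0.0808% of the genes tested), and these 31 differentially expressed genes (DEGs) made up 0.157%. With no fold threshold, 298 genes passed the test, 193 higher and 105 lower, which is 1.5% of all genes (0.975% higher and 0.53% lower). The log2 differences had a median of -0.00018 over all genes, their median size was 0.077, and the 99th percentile of the size was 0.66. The deposited values are CPM, counts scaled to a common library total, on the log2 scale (log2 CPM), given as 1 mean per group. Library values and their overlap therefore cannot be shown, and each level below is a group mean with a standard error (SE). That SE comes from the single fit of all 12 libraries, –Pi included, and is the same in the 4 groups of a gene. It is not the spread of the libraries of that group alone. A difference between the lines had a median SE of 0.093, which was 0.35 among the 800 genes that averaged under 0 log2 CPM. Of the 31 DEGs, 18 lay below 0 log2 CPM in at least 1 of the +Pi groups, and 4 lay above 4 log2 CPM in Col-0. The p-values of the 4 pairwise contrasts of the study were adjusted together. The largest unadjusted p among the 298 genes was 0.00622, and if no gene had differed 123 of 19802 genes would lie at or below it. When this contrast was adjusted alone, 26 genes passed (0.131%), 14 higher (0.0707%) and 12 lower (0.0606%), of which 12 were DEGs.

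**Figure D1:**
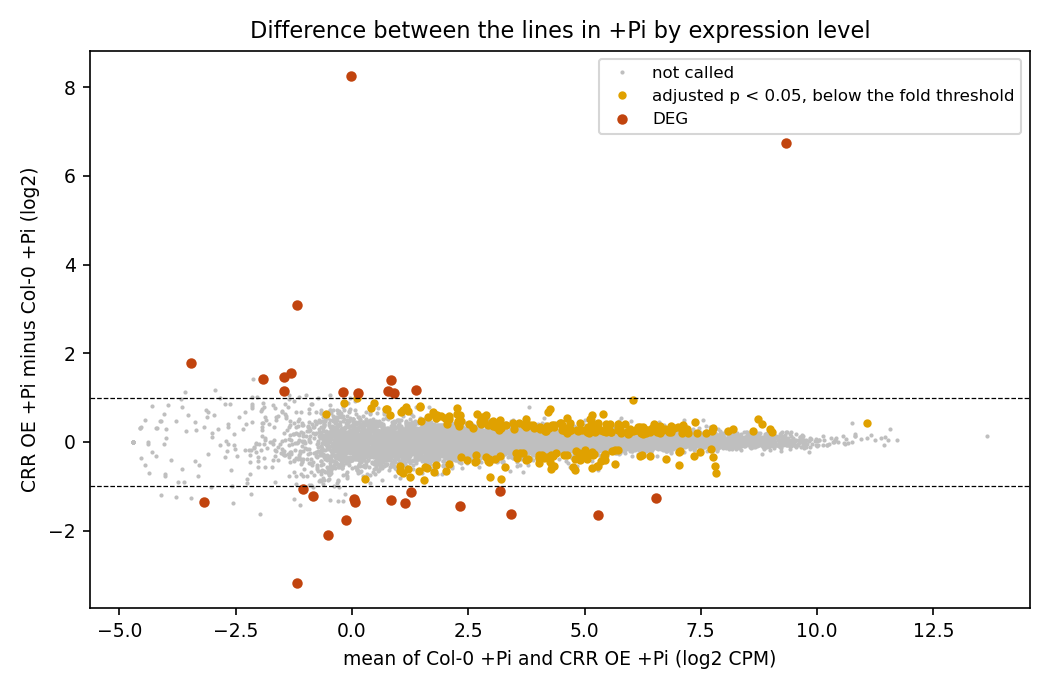
Each point is a gene, with the mean of both +Pi groups (log2 CPM) on the x axis and the log2 difference between CRR OE and Col-0 on the y axis. Genes past both thresholds (dashed lines at -1 and 1) lie mostly at low levels, those past the test alone mostly at middle and high levels, and AT1G75945 is left out because it is listed at the lowest value in Col-0.

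**Figure D2:**
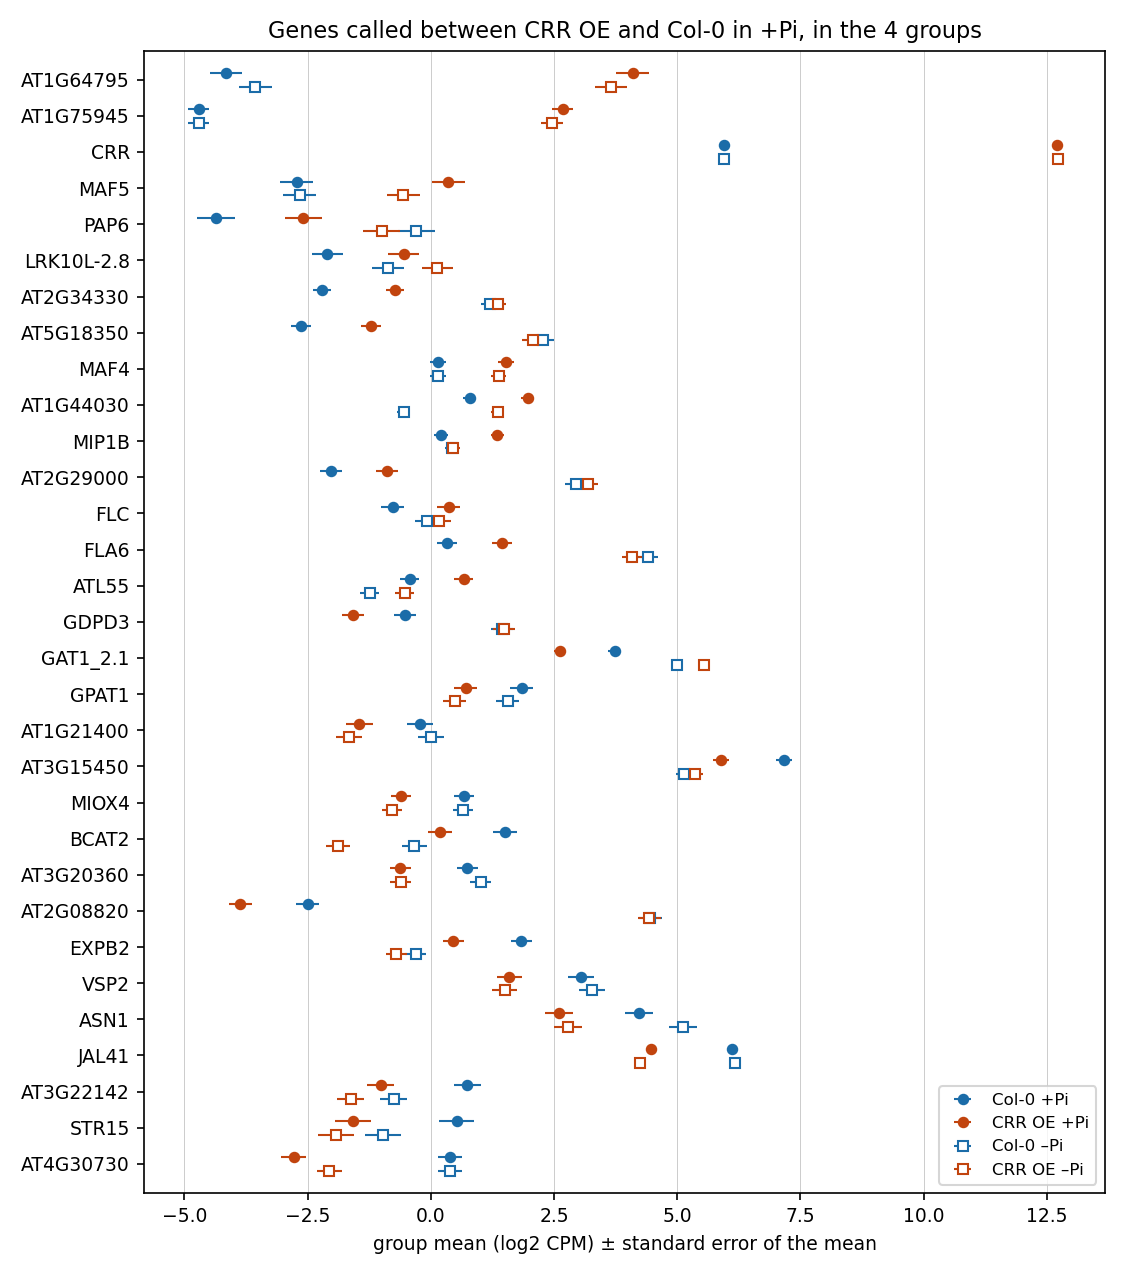
Group means (log2 CPM, points) with standard errors from the single fit of all libraries (bars) for the 31 DEGs in Col-0 (blue) and CRR OE (orange), in +Pi (filled circles) and –Pi (open squares), ordered by the difference in +Pi. *CRR* stands at 12.70 in CRR OE against 5.96 in Col-0, and most of the other genes lie below 5.

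*CRR* (AT3G25290, chromosome 3 from 9208861 to 9210653 in TAIR10) had a mean of 5.96 ± 0.066 log2 CPM in Col-0 and 12.70 ± 0.066 in CRR OE, which corresponds to 62 and 6677 CPM, or 0.0062% and 0.668% of a library. The log2 difference was 6.75 (SE 0.094, adjusted p = 3.13e-16), so that the labels hold for the overexpressed gene. *CRR* ranked 3800 of 19802 genes by level in Col-0 and 2 in CRR OE. Reads counted at this locus include those of the fusion transgene. The measured genes on either side did not pass the test. *OXI1*, which encodes a protein kinase of oxidative signaling, differed by 0.15 (SE 0.072, adjusted p = 0.217), and AT3G25400, whose gene start lies 4.001 kb away, had -0.081 (SE 0.10, adjusted p = 0.71). Beyond them, AT3G25240 had 0.48 (adjusted p = 0.433) and *BASS3* -0.066 (adjusted p = 0.733). Among 15 measured genes for CYBDOM and cytochrome b561 proteins, *CRR* was the only one that passed (6.67% against 1.5% of all genes), and the other 14 lay between -0.20 and 0.13. The closest relative *CRR;H1* was at 3.35 log2 CPM in Col-0 and 3.42 in CRR OE, a difference of 0.077 (SE 0.085, adjusted p = 0.66). *HYP1*, a CYBDOM gene known from phosphate-starved roots, was at 4.84 and 4.86, a difference of 0.017 (SE 0.072, adjusted p = 0.926).

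Besides *CRR*, a pair of short uncharacterised loci on chromosome 1 was nearly silent in Col-0 and expressed in CRR OE in both media. AT1G64795 (chromosome 1 from 24082579 to 24082848) had a mean of -4.15 ± 0.33 log2 CPM in Col-0 and 4.10 ± 0.33 in CRR OE (adjusted p = 5.89e-09), and -3.56 and 3.65 log2 CPM in –Pi. AT1G75945 (chromosome 1 from 28515245 to 28515916) stood in Col-0 in both media at -4.71 log2 CPM, below which the table holds no value, and was at 2.67 ± 0.22 log2 CPM in CRR OE +Pi and 2.46 in CRR OE –Pi (adjusted p = 1.60e-10 in +Pi). No fold is given for them because the Col-0 values lie at or near the lowest value. None of the measured genes beside them passed the test. *ILA*, which overlaps AT1G64795 on the opposite strand, was at 7.85 and 8.02 log2 CPM (adjusted p = 0.621), and *SKP1A*, which encodes a subunit of SCF ubiquitin ligases and starts 1.274 kb from AT1G75945, was at 7.65 and 7.64 (adjusted p = 0.959). The ammonium transporter gene *AMT1-2*, beyond *ILA*, had a difference of 0.39 (SE 0.13, adjusted p = 0.0705) with an unadjusted p of 0.0101. Whether the counting used the strand is not given in the sources used here. Their annotated coding exons are shown because neither locus has a described function, 5′ to 3′ on the coding strand, from the RefSeq genome TAIR10.1 at chr1:24082579-24082746 and chr1:24082816-24082848 (plus strand) and at chr1:28515706-28515809 and chr1:28515413-28515494 (minus strand). Capitals mark the 142 bases that lie within an exon of *ILA*.
AT1G64795 coding exon 1: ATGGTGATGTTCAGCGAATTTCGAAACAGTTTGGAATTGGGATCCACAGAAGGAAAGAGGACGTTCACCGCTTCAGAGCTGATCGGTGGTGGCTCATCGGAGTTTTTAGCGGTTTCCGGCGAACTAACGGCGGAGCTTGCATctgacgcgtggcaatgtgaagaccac
AT1G64795 coding exon 2: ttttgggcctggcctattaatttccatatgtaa
AT1G75945 coding exon 1: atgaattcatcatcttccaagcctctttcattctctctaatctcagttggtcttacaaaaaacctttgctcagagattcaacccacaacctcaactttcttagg
AT1G75945 coding exon 2: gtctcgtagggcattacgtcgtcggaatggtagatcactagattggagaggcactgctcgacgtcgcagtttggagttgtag
No cause of this signal was tested, and the sequence of the transgene vector was not analysed here.

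A further group among the higher genes was that of the MADS-box repressors of flowering. The group was chosen with earlier results of these data known, so its share of called genes is a description. Of the 6 measured genes of this group, *FLC* and *MAF1* to *MAF5*, 3 were higher in CRR OE and 0 lower (50% called, against 1.5% of all genes), and the median log2 difference was 0.59 against -0.00018 for all genes. *MAF5* (AT5G65080, chromosome 5 from 25997504 to 26002619) was at -2.72 ± 0.33 log2 CPM in Col-0 and 0.36 ± 0.33 in CRR OE, a log2 difference of 3.08 (SE 0.47, adjusted p = 0.000259). *MAF4* (AT5G65070, chromosome 5 from 25992193 to 25996202), its tandem neighbour, was at 0.14 ± 0.16 log2 CPM in Col-0 and 1.53 ± 0.16 in CRR OE, a log2 difference of 1.39 (SE 0.23, adjusted p = 0.000497). *FLC* (AT5G10140), the repressor that vernalization silences, was at -0.77 ± 0.24 log2 CPM in Col-0 and 0.36 ± 0.24 in CRR OE, a log2 difference of 1.14 (SE 0.34, adjusted p = 0.0369). The other members were far more abundant and did not pass. *MAF2* was at 5.88 and 5.87 log2 CPM (log2 difference -0.0035), *MAF3* at 3.58 and 3.61 (0.038), and *MAF1* at 5.39 and 5.35 (-0.033). Within the tandem cluster the genes that passed were thus *MAF4* and *MAF5*, and the genes outside it, AT5G65030 at 0.48, AT5G65040 at -0.10, *IP5P5* at 0.051 and *ACX2* at -0.012, did not pass either. In the –Pi libraries, which share no sample with the +Pi means but share their spread, *MAF5* differed by 2.11 (adjusted p = 0.00607) and *MAF4* by 1.23 (adjusted p = 0.0014), while *FLC* was at 0.25 (adjusted p = 0.723). *FLC* passed in the joint adjustment only (adjusted p = 0.373 when the contrast was adjusted alone, against 0.0194 for *MAF4* and 0.0148 for *MAF5*). With 1 CPM added to the means, *MAF5* was at 0.99, *MAF4* at 0.89 and *FLC* at 0.53 on the log2 scale, all below the fold threshold.

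The stretches of 250 bases before the annotated starts of *MAF4* (chr5:25991943-25992192) and *MAF5* (chr5:25997254-25997503), both on the plus strand of TAIR10.1, are shown because these neighbours moved together. Capitals mark their longest shared run, which has 20 bases and occurs, on either strand, in 2 of 19782 such windows of the measured genes.
MAF4: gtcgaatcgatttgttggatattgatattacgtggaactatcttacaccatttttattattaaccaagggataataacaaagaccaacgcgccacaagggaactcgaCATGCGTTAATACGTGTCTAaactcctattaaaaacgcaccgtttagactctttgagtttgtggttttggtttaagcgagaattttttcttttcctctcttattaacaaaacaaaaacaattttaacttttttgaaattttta
MAF5: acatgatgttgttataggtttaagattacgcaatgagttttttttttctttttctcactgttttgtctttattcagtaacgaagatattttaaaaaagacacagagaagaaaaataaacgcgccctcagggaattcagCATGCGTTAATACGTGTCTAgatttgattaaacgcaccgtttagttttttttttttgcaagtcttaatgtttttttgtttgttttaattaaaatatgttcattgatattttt
For comparison, the longest runs that *MAF2* shares with *MAF3* and with *MAF4* had 18 bases each, and that of *MAF3* with *MAF5* had 8. A shared run is a description of the letters and no evidence of a binding site.

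**Figure D3:**
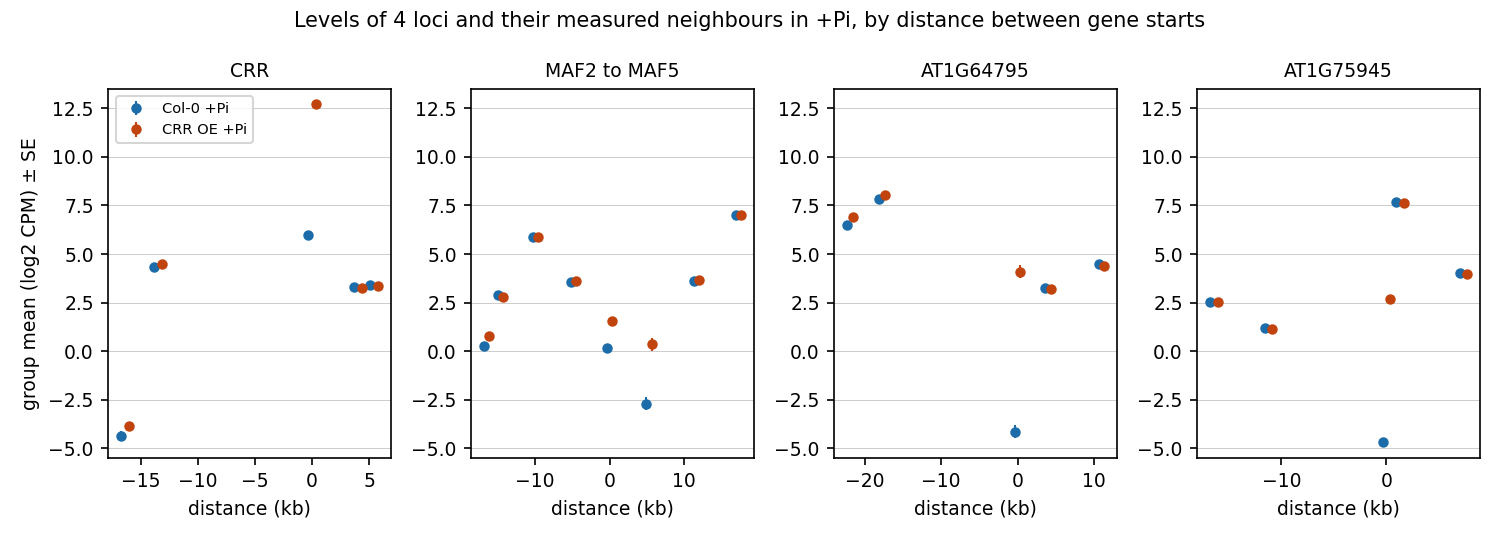
Group means (log2 CPM, points) with standard errors from the single fit of all libraries (bars) in Col-0 +Pi (blue) and CRR OE +Pi (orange) for *CRR*, the *MAF2* to *MAF5* cluster, AT1G64795, AT1G75945 and the measured genes beside them, by the distance (kb) of each gene start from *CRR*, *MAF4*, AT1G64795 and AT1G75945. The lines separate at *CRR*, *MAF4*, *MAF5* and both uncharacterised loci, and none of the other genes shown passed the test.

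Among the genes lower in CRR OE +Pi were several of the list of genes induced by darkness and sugar starvation. This list, like the others, was chosen with earlier results of these data known, so its share of called genes is a description. Members of a list can also vary together between libraries, so a count of them is not one of independent measurements. Of 17 measured genes of this list, 0 were higher and 6 lower (35.3% called, against 0.53% of all genes called lower), 16 had a negative difference, and the median log2 difference was -0.21. *STR15* (AT4G35770), known as the senescence-associated and dark-inducible gene *SEN1*, was at 0.53 ± 0.36 log2 CPM in Col-0 and -1.58 ± 0.36 in CRR OE, a log2 difference of -2.10 (SE 0.51, adjusted p = 0.0107). *ASN1* (AT3G47340), the dark-inducible asparagine synthetase that stores nitrogen when carbon is scarce, was at 4.23 ± 0.28 log2 CPM in Col-0 and 2.60 ± 0.28 in CRR OE, a log2 difference of -1.64 (SE 0.40, adjusted p = 0.0123). *DIN10* (AT5G20250), of the raffinose synthase family, was among the more abundant ones, at 8.18 ± 0.077 log2 CPM in Col-0 and 7.48 ± 0.077 in CRR OE, with -0.70 (SE 0.11, adjusted p = 0.000348). *PRODH1* (AT3G30775), the mitochondrial proline dehydrogenase, was at 8.09 ± 0.06 log2 CPM in Col-0 and 7.54 ± 0.06 in CRR OE, with -0.55 (SE 0.085, adjusted p = 0.000316). The trehalose-phosphate synthase family gene *TPS8* had -0.38 (SE 0.092, adjusted p = 0.0109), and *BZIP63*, a transcription factor of energy signaling, had -0.39 (SE 0.10, adjusted p = 0.0172). Of the rest, *TPS11* was at -0.43 (adjusted p = 0.0642) and *DIN11*, the one positive member, at 0.23 (adjusted p = 0.869). Adjusted alone, 2 of the 6 passed, *PRODH1* and *DIN10*.

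Genes for the breakdown of branched-chain amino acids, which feed respiration under carbon starvation, lay in the same direction. All 11 measured members had a negative log2 difference, from -1.31 to -0.036 with a median of -0.14, and 2 of them passed (18.2%, against 0.53% of all genes called lower). Such members can vary together between libraries and are not 11 independent measurements. *BCAT2* (AT1G10070), the aminotransferase of the first step, was at 1.498 ± 0.24 log2 CPM in Col-0 and 0.19 ± 0.24 in CRR OE, a log2 difference of -1.31 (SE 0.35, adjusted p = 0.0194). AT1G21400, annotated as an E1 subunit of the branched-chain keto acid dehydrogenase, was at -0.22 ± 0.27 log2 CPM in Col-0 and -1.45 ± 0.27 in CRR OE, with -1.22 (SE 0.38, adjusted p = 0.0439). *DIN3*, the E2 subunit of the same complex, was at -0.27 (adjusted p = 0.0659), and *IVD*, isovaleryl-CoA dehydrogenase, at -0.22 (adjusted p = 0.114). Neither of the 2 called members passed when the contrast was adjusted alone (0.274 and 0.397). Outside the lists, AT3G15450 (a protein with YGL and LRDR motifs) fell from 7.16 to 5.90 log2 CPM, -1.26 (SE 0.23, adjusted p = 0.00134), the highest level among the lower DEGs. *GAT1_2.1*, which encodes a class I glutamine amidotransferase-like protein, was at 3.73 ± 0.12 log2 CPM in Col-0 and 2.62 ± 0.12 in CRR OE, with -1.11 (SE 0.17, adjusted p = 0.000347). Both also passed with the contrast adjusted alone (0.0468 and 0.0168).

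The 250 bases before the gene start were searched on both strands for CACGTG (the G-box), ACTCAT (known from the *PRODH1* promoter), GATAAG (the I-box of light-regulated promoters), TATCCA (the sugar-response box known from rice amylase genes) and GNATATNC (the binding site of PHR1). GATAAG was present in 6 of 16 lower DEGs (37.5%), in 1 of 15 higher DEGs and in 2377 of 19782 windows of all measured genes (12%). Without the fold threshold it was present in 25 of 105 lower genes (23.8%) and in 15 of 193 higher genes (7.77%). The 6 lower DEGs were *BCAT2*, AT3G15450, *ASN1*, *MIOX4*, *STR15* and *VSP2*. For the other motifs, the lower and higher DEGs held CACGTG in 3 of 16 and 1 of 15 against 7.16% of all windows, ACTCAT in 1 of 16 and 4 of 15 against 11.7%, TATCCA in 4 of 16 and 2 of 15 against 13.9% and GNATATNC in 2 of 16 and 1 of 15 against 5.54%. These shares are a description without a test. Windows of 4 lower genes that touch no annotated exon are shown 5′ to 3′ on the gene's strand, from TAIR10.1 at chr1:3287837-3288086 (plus), chr3:5212734-5212983 (plus), chr1:26474834-26475083 (minus) and chr3:12451557-12451806 (minus). Capitals mark GATAAG or its reverse complement in the windows of *BCAT2*, AT3G15450 and *TPS8*, and the reverse complement of ACTCAT in that of *PRODH1*.
BCAT2: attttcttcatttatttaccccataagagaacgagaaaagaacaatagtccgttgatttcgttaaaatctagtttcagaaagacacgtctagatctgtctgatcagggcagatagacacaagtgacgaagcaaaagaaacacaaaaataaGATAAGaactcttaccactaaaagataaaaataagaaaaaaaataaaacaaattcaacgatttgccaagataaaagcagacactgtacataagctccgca
AT3G15450: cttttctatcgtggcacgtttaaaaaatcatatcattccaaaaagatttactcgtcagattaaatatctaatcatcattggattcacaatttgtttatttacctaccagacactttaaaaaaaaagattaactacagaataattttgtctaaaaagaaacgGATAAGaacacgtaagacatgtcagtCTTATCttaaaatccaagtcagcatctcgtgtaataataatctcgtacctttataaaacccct
TPS8: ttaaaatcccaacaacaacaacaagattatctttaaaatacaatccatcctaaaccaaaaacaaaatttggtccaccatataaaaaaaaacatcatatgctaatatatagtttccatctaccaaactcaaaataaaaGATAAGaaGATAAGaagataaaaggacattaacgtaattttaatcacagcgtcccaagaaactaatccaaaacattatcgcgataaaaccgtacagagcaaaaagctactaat
PRODH1: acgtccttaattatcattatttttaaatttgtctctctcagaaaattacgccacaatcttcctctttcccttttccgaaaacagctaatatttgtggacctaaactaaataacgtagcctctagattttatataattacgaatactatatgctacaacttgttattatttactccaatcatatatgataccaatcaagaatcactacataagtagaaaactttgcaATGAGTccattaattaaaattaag
GATAAG lies 100 to 95 bases before the start of *BCAT2*, and 113 to 108 and 105 to 100 bases before that of *TPS8*.

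Several of the remaining lower DEGs encode proteins of storage, defense and the cell surface. *JAL41* (AT5G35940), a jacalin-related lectin, was the most precisely measured of them, at 6.12 ± 0.10 log2 CPM in Col-0 and 4.47 ± 0.10 in CRR OE, a log2 difference of -1.65 (SE 0.15, adjusted p = 1.15e-06), and it was the only one of 21 measured jacalin lectins that passed (4.76% called, against 0.53% of all genes called lower). *VSP2* (AT5G24770), a vegetative storage protein induced by jasmonate, was at 3.04 ± 0.26 log2 CPM in Col-0 and 1.60 ± 0.26 in CRR OE, a log2 difference of -1.44 (SE 0.37, adjusted p = 0.0166). Its neighbour and paralog *VSP1* was at -0.44 (adjusted p = 0.344). Of 24 measured genes of jasmonate synthesis and response, *VSP2* was the only one called lower (where 0.53% of all genes were). *MYC2*, the transcription factor of jasmonate responses, was the only one called higher (where 0.975% of all genes were). It differed by 0.20 (SE 0.055, adjusted p = 0.0243) but did not pass with the contrast adjusted alone (0.305). The median of that list was 0.012. *MIOX4*, a myo-inositol oxygenase, was at 0.68 ± 0.21 log2 CPM in Col-0 and -0.60 ± 0.21 in CRR OE, with -1.28 (SE 0.29, adjusted p = 0.00753), and was the only one of 19 measured ascorbate genes that passed (5.26%, against 0.53% of all genes called lower). *EXPB2*, a beta-expansin, was at 1.84 ± 0.21 log2 CPM in Col-0 and 0.46 ± 0.21 in CRR OE, with -1.38 (SE 0.30, adjusted p = 0.00509), the only call among 49 expansins and xyloglucan endotransglucosylases (2.04%, where 1.5% of all genes were called in either direction). *GPAT1*, a glycerol-3-phosphate acyltransferase, had -1.14 (SE 0.33, adjusted p = 0.0312), AT3G22142, of a lipid-transfer protein family, -1.75 (SE 0.39, adjusted p = 0.00603), and AT3G20360, a TRAF-like protein, -1.36 (SE 0.30, adjusted p = 0.00635). The uncharacterised gene AT4G30730 (chromosome 4) was at 0.39 ± 0.25 log2 CPM in Col-0 and -2.78 ± 0.25 in CRR OE, with -3.17 (SE 0.36, adjusted p = 1.37e-05), and had the largest fold of the lower DEGs. *JAL41* and AT4G30730 passed when adjusted alone (5.53e-05 and 0.000875), whereas *VSP2*, *MIOX4*, *EXPB2*, *GPAT1*, AT3G22142 and AT3G20360 did not.

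Several DEGs were genes that were scarce in +Pi and rose when phosphate was withheld. Of the 31 DEGs, 8 passed both thresholds as higher in –Pi than in +Pi in Col-0, a contrast that shares the Col-0 +Pi libraries with the one described here and in which 3.83% of all genes did so. These 8 include *GAT1_2.1*, described above, which was not scarce at 3.73 log2 CPM in Col-0 +Pi. *PAP6*, a purple acid phosphatase, was at -4.35 ± 0.38 log2 CPM in Col-0 and -2.58 ± 0.38 in CRR OE in +Pi (adjusted p = 0.0425) and at -0.29 in Col-0 –Pi. Its Col-0 +Pi level lies near the lowest value of the table, so no fold is given. It was the only one of 21 measured purple acid phosphatase genes that passed (where 0.975% of all genes were called higher). *FLA6*, a fasciclin-like arabinogalactan protein, was at 0.34 ± 0.20 log2 CPM in Col-0 and 1.45 ± 0.20 in CRR OE, with 1.11 (SE 0.29, adjusted p = 0.0177), and at 4.41 in Col-0 –Pi. AT5G18350, a TIR-NBS-LRR protein, was at -2.63 ± 0.21 log2 CPM in Col-0 and -1.21 ± 0.21 in CRR OE, with 1.43 (SE 0.29, adjusted p = 0.00325). AT2G34330 had 1.47 (SE 0.25, adjusted p = 0.000745) and the leucine-rich repeat kinase gene AT2G29000 had 1.14 (SE 0.31, adjusted p = 0.0218). The lower ones of the scarce genes were *GDPD3*, a glycerophosphodiester phosphodiesterase that releases glycerol-3-phosphate from lipids, with -1.05 (SE 0.32, adjusted p = 0.0439), and the long non-coding RNA AT2G08820, at -2.49 and -3.86 log2 CPM with -1.37 (SE 0.33, adjusted p = 0.0111), which stood at 4.46 in Col-0 –Pi. These genes thus moved in both directions in CRR OE +Pi. Of the 7 scarce genes, AT2G34330 alone passed when the contrast was adjusted alone (0.0272), and with 1 CPM added their log2 differences lay between -0.34 and 0.72.

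The other DEGs that were higher in CRR OE encode regulators and receptors. *MIP1B* (AT3G21890), a B-box microprotein also known as BBX31, was at 0.20 ± 0.14 log2 CPM in Col-0 and 1.35 ± 0.14 in CRR OE, a log2 difference of 1.15 (SE 0.20, adjusted p = 0.000743). AT1G44030, a cysteine- and histidine-rich C1 domain protein, was at 0.79 ± 0.13 log2 CPM in Col-0 and 1.96 ± 0.13 in CRR OE, with 1.18 (SE 0.19, adjusted p = 0.00042). *ATL55*, a RING-type ubiquitin ligase, was at -0.42 ± 0.19 log2 CPM in Col-0 and 0.67 ± 0.19 in CRR OE, with 1.09 (SE 0.27, adjusted p = 0.0142), and the receptor-like kinase gene *LRK10L-2.8* was at -2.10 ± 0.32 log2 CPM in Col-0 and -0.55 ± 0.32 in CRR OE, with 1.55 (SE 0.45, adjusted p = 0.0315). *MIP1B* and AT1G44030 also passed when adjusted alone (0.0272 and 0.0179). The DEGs nearest the fold threshold were *GDPD3* (-1.05), *ATL55* (1.09) and *GAT1_2.1* (-1.11). Just below it lay the peroxidase gene *PER59* (0.98), the glutathione S-transferase gene *GSTF7* (0.93) and the protein kinase gene *EMB1290* (0.88).

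Below the fold threshold, the genes with the smallest p were mostly of middle or high abundance. AT1G30820, a CTP synthase of nucleotide synthesis, was at 7.28 ± 0.042 log2 CPM in Col-0 and 6.77 ± 0.042 in CRR OE, -0.51 (SE 0.06, adjusted p = 1.95e-05). *ZIP3*, a zinc transporter of the ZIP family, was at 5.08 ± 0.06 log2 CPM in Col-0 and 5.71 ± 0.06 in CRR OE, 0.63 (SE 0.085, adjusted p = 8.76e-05). *SWEET13*, a sucrose transporter, was at 1.86 ± 0.078 log2 CPM in Col-0 and 2.63 ± 0.078 in CRR OE, 0.77 (SE 0.11, adjusted p = 0.000158). Lower were *BXL2*, a beta-xylosidase of the cell wall, at -0.59 (SE 0.086, adjusted p = 0.00018), and AT1G72890, a TIR-NBS protein, at -0.67 (SE 0.10, adjusted p = 0.000254). Higher were AT5G45095, which is uncharacterised, at 0.82 (SE 0.13, adjusted p = 0.000376), AT1G44820, a peptidase of the M20 family, at 0.60 (SE 0.096, adjusted p = 0.00043), and *RBOHE*, a respiratory burst NADPH oxidase, at 0.39 (SE 0.062, adjusted p = 0.000447). With *PRODH1* and *DIN10*, described above, these make up the 10 genes of smallest p, and all 10 passed with the contrast adjusted alone (adjusted p of 0.00113 to 0.0179).

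The genes that answer iron deficiency leaned upwards in CRR OE +Pi, mostly below the threshold of the test. Of 30 measured genes, 4 were higher and 0 lower (13.3% called, against 0.975% of all genes called higher), 25 had a positive difference, and the median log2 difference was 0.21. *AHA2*, the plasma membrane proton pump that acidifies the rhizosphere, was at 10.85 ± 0.072 log2 CPM in Col-0 and 11.29 ± 0.072 in CRR OE, 0.44 (SE 0.10, adjusted p = 0.00835). *BTSL1*, a ubiquitin ligase that limits iron uptake, had 0.35 (SE 0.10, adjusted p = 0.0315), *FRO3*, a mitochondrial ferric reductase, had 0.24 (SE 0.072, adjusted p = 0.0425), and *PDR9*, which exports coumarins that mobilise iron, had 0.28 (SE 0.086, adjusted p = 0.0425). The 4 members with the largest differences did not pass. They were *BHLH38*, a partner of FIT, at 0.64 (SE 0.21, adjusted p = 0.0653), *CYP82C4* of coumarin synthesis at 0.54 (SE 0.42, adjusted p = 0.499), *IRT1*, the main root iron transporter, at 0.49 (SE 0.41, adjusted p = 0.538), and *BHLH100* at 0.47 (SE 0.38, adjusted p = 0.515). *FRO2*, the main root ferric reductase, was at 6.38 and 6.84 log2 CPM, 0.46 (SE 0.33, adjusted p = 0.453), and *FIT*, the master regulator of iron uptake, at 6.20 and 6.40, 0.19 (SE 0.075, adjusted p = 0.119). None of the 30 passed when the contrast was adjusted alone, and 10, all higher, had an unadjusted p under 0.05 (33.3%, against 7.68% of all genes). Genes of one response can vary together between libraries, so these counts are not those of 30 independent measurements.

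In the same libraries the 6 root hair markers had a median log2 difference of 0.24, and 0 were called by the recomputed limma test after adjustment. An unadjusted p under 0.05 was found for 3 of 6 (*PRP3*, *RHD6* and *LRX1*, all higher), where 7.68% of all genes had one. *COBL9* was at 0.17 and *EXPA7* at 0.19, while *RSL4* was lower, at -0.14 (SE 0.10, adjusted p = 0.437). The summed level of the 6 markers was 167 CPM in Col-0 and 198 CPM in CRR OE. Iron uptake genes are known to act in the root epidermis, and the part of these markers in the difference was not tested. In bulk RNA, a different number of cells of a type and a different amount of RNA per cell cannot be told apart. The 15 measured genes of iron storage and iron transport within the plant held 0 calls by the recomputed limma test (0 at an unadjusted p under 0.05) and a median of 0.094, and the 14 copper genes 0 calls (0 at an unadjusted p under 0.05) and a median of 0.036. Of 5 measured ferric reductase oxidase genes, *FRO3* alone passed (where 0.975% of all genes were called higher), and *FRO4* and *FRO5* were at 0.14 and 9.7e-05.

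**Figure D4:**
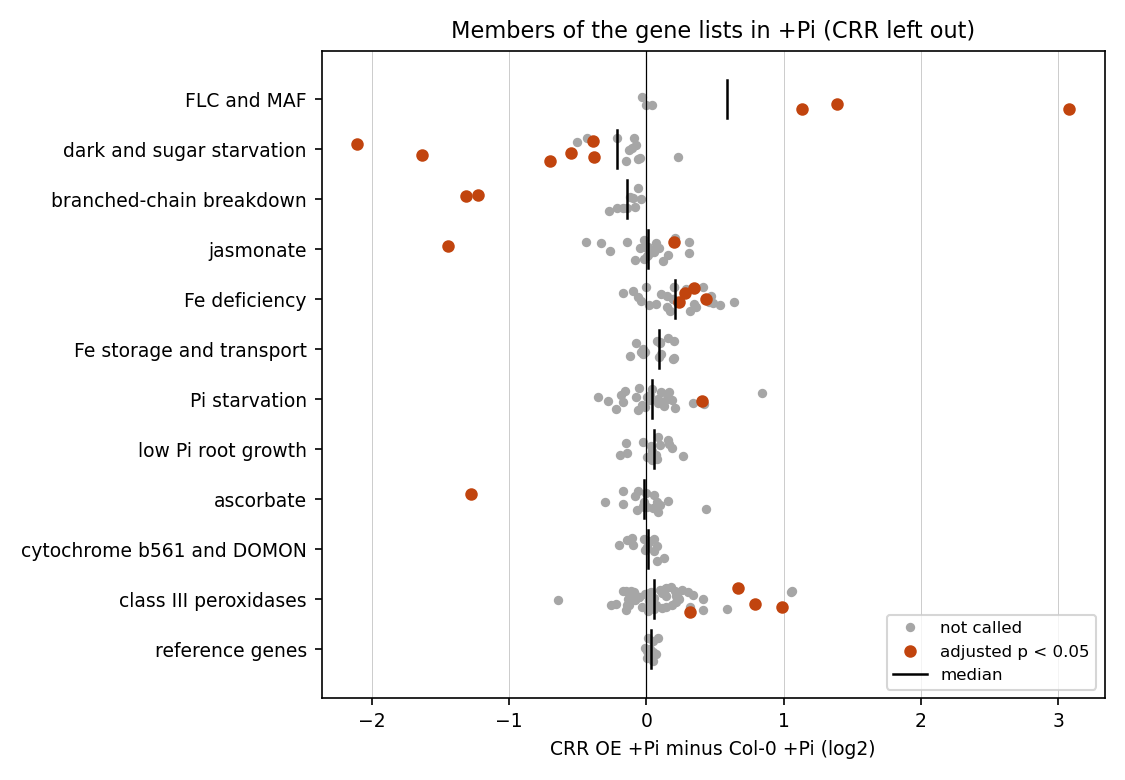
Each point is a gene of a list named on the y axis, placed by its log2 difference between CRR OE and Col-0 in +Pi, filled orange where the adjusted p was under 0.05, and vertical bars give the list medians over the members shown. *CRR* is left out of the cytochrome b561 and DOMON list, and points are spread vertically within a list only to keep them apart.

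Most phosphate starvation genes lay close to their Col-0 levels. Of 29 measured members, 1 was higher and 0 lower (3.45% called, against 0.975% of all genes called higher), and the median log2 difference was 0.039. An unadjusted p under 0.05 was found for 5 of the 29, a larger share than the 7.68% of all genes. Of these, *PHT1;4*, *RNS1* and *PECP1* were higher and *SPX1* and *AT4* lower, *AT4* by -0.28 (SE 0.12, adjusted p = 0.16). The one that passed was *PHT1;4*, a high-affinity phosphate transporter, at 5.67 ± 0.057 log2 CPM in Col-0 and 6.08 ± 0.057 in CRR OE, 0.40 (SE 0.081, adjusted p = 0.00292), and it did not pass with the contrast adjusted alone (0.0831). The largest differences among the others were those of *PECP1*, a phosphatase of lipid headgroups, at -4.38 and -3.53 log2 CPM, near the lowest value of the table (adjusted p = 0.18), the ribonuclease gene *RNS1* at 0.42 (SE 0.17, adjusted p = 0.129), and *SPX3*, a phosphate sensor protein, at -0.35 (SE 0.19, adjusted p = 0.287). *SPX1* was at -0.18 (SE 0.061, adjusted p = 0.0621) and *PHT1;1*, the most abundant transporter gene of the family, at 8.17 and 8.32 log2 CPM, 0.15 (SE 0.085, adjusted p = 0.328). The 16 genes of the root growth response to low phosphate held 0 calls by the recomputed limma test (3 at an unadjusted p under 0.05, 2 higher and 1 lower), and their log2 differences ran from -0.19 to 0.27. *CLE14*, a peptide that ends meristem activity, was at 0.27 (SE 0.24, adjusted p = 0.573), the transcription factor gene *BES1* at -0.19 (SE 0.076, adjusted p = 0.126), *STAR1*, a partner of ALS3, at 0.19 (SE 0.078, adjusted p = 0.141), and the calnexin gene *CNX1* at 0.17 (SE 0.076, adjusted p = 0.195). *LPR1*, the ferroxidase of this response, was at 3.14 and 3.23 log2 CPM, with 0.097 (SE 0.11, adjusted p = 0.682) and a 95% interval of -0.15 to 0.34, and *STOP1* at 0.033 (SE 0.062, adjusted p = 0.817).

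Families of oxidative and stress functions held a few higher calls and, apart from *AGP30*, no lower ones. Of 57 measured class III peroxidases, 4 were higher (7.02%, against 0.975% of all genes called higher, the share to set beside each count in this paragraph) and 0 lower, with a median of 0.059, namely *PER8* at 0.79 (SE 0.15, adjusted p = 0.00147), *PER25* at 0.66 (SE 0.15, adjusted p = 0.00758), *PER59* at 0.98 (SE 0.26, adjusted p = 0.0182) and *PER66* at 0.32 (SE 0.098, adjusted p = 0.0428). Of 44 glutathione S-transferases, *GSTF7* at 0.93 (SE 0.20, adjusted p = 0.00423) and *GSTU5* at 0.37 (SE 0.11, adjusted p = 0.0434) were higher. Of 55 heat shock genes, *HSFA2*, a heat stress transcription factor, at 0.60 (SE 0.17, adjusted p = 0.0325), *HSP23.5* at 0.42 (SE 0.12, adjusted p = 0.0294) and *HSP70-3* at 0.24 (SE 0.062, adjusted p = 0.0157) were higher. Of 153 cytochromes P450, *CYP94B3*, which inactivates jasmonoyl-isoleucine, was the one called, at 0.59 (SE 0.11, adjusted p = 0.00204), 0.654% of the family and below the share of all genes. Among 74 arabinogalactan and extensin proteins, *FLA6* and *FLA15* were higher, the latter by 0.26 (SE 0.077, adjusted p = 0.0387), and *AGP30* was lower, at -0.20 (SE 0.055, adjusted p = 0.0226) (against 0.53% of all genes called lower). None of the genes named in this paragraph passed when the contrast was adjusted alone, the lowest adjusted p being that of *PER8* at 0.0503.

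Root tissue markers were present in both lines and did not pass the test. The markers of the endodermis (6 genes), stem cell niche (4), vascular tissue (5) and dividing cells (4) had median log2 differences of 0.0022, -0.016, 0.14 and -0.069, with 0 calls by the recomputed limma test and 0 at an unadjusted p under 0.05. The 4 root cap markers were all lower, with a median of -0.21, 0 calls and 2 at an unadjusted p under 0.05, *BRN2* and *FEZ*. Of the shoot genes, 3 of 6 were measured, and *RBCS1A* was at 4.005 log2 CPM in Col-0 and 3.33 in CRR OE, a difference of -0.67 (SE 0.60, adjusted p = 0.565). *LHCB2.1* was at -0.10 (SE 0.26, adjusted p = 0.867) and *AP3* at 0.14 (SE 0.34, adjusted p = 0.861). The shoot genes summed to 19.5 and 13.4 CPM, a fall that lay mainly in *RBCS1A*. In –Pi, *RBCS1A* was at 0.53, *AP3* at 0.21 and *LHCB2.1* at -0.71, and none of them passed. Several of the lower DEGs are known from leaves, and the part of shoot RNA in them was not tested. The 10 reference genes ran from -0.012 to 0.088, with 0 calls and 0 at an unadjusted p under 0.05.

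The –Pi libraries, none of which enters the +Pi contrast although all share one model of the spread, measured the same line difference a second time. Of the 31 DEGs, 15 (48.4%, against 9.29% of all genes) also passed in –Pi, all 15 in the same direction and all past the fold threshold (a call that 1.14% of all genes reached). These were 6 higher genes (against 0.53% of all genes), *CRR*, AT1G64795, AT1G75945, *MAF4*, *MAF5* and AT1G44030, and 9 lower genes (against 0.611%), AT4G30730, *JAL41*, *ASN1*, *VSP2*, AT3G20360, *BCAT2*, *MIOX4*, AT1G21400 and *GPAT1*. *JAL41* differed by -1.93 in –Pi (adjusted p = 1.97e-07), *ASN1* by -2.34 (adjusted p = 0.000805) and AT1G44030 by 1.91 (adjusted p = 3.31e-06). The other 16 did not pass in –Pi. *STR15* was at -0.95 (adjusted p = 0.282), and *FLA6*, *PAP6*, AT5G18350, AT2G29000, AT2G34330, *GDPD3* and AT2G08820, which were higher in Col-0 without phosphate, lay between -0.70 and 0.23. The interaction of genotype and phosphate, which contains the +Pi difference itself, reached an adjusted p under 0.05 for 4 of the 31 (12.9%, against 2.78% of all genes), a share from which nothing is read. They were *GAT1_2.1* (1.66, adjusted p = 0.00196), AT3G15450 (1.49, adjusted p = 0.0224), *MIP1B* (-1.13, adjusted p = 0.041) and AT5G18350 (-1.65, adjusted p = 0.0441).

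The wider set of 298 genes behaved otherwise. In –Pi, 111 of them passed (37.2%, against 9.29% of all genes), 55 in the same direction as in +Pi and 56 in the opposite one. By direction, 181 of 298 had the same sign in both media (60.7%), against 55.7% of all genes. Of the 193 higher genes, 31 were also higher in –Pi and 33 were lower, where 4.95% of all genes were higher and 4.34% lower. Of the 105 lower genes, 24 were also lower and 23 were higher. All 56 opposite genes also passed for the interaction, which their choice nearly fixed, since it is the sum of the sizes of both differences. Of the starvation genes, *TPS8* was at -0.38 in +Pi and 0.95 in –Pi (adjusted p = 2.70e-06), *BZIP63* at -0.39 and 0.38 (adjusted p = 0.018), and *DIN10* at -0.70 and 0.36 (adjusted p = 0.0433), whereas *PRODH1* was at -0.55 and -0.87 (adjusted p = 2.97e-06) and *ASN1* was lower in both media.

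**Figure D5:**
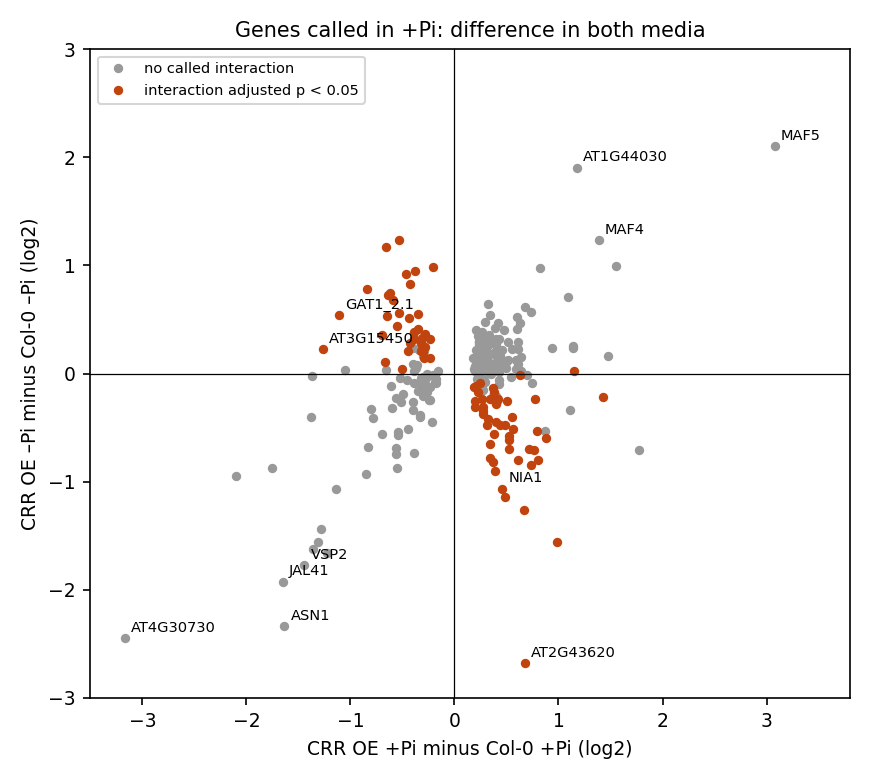
The log2 difference between CRR OE and Col-0 in +Pi (x axis) and in –Pi (y axis) for the genes called in +Pi other than *CRR*, AT1G64795 and AT1G75945, in orange where the interaction of genotype and phosphate had an adjusted p under 0.05. Among the genes with large differences in +Pi, *MAF5*, AT4G30730, *JAL41* and *ASN1* lie in the quadrants of the same direction. *PAP6*, AT3G15450 and *GAT1_2.1* lie in the opposite ones, as do many genes with small differences.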

How the data were processed

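RNA was sequenced from Arabidopsis roots in 4 groups of 3 libraries. Reads had been trimmed (cutadapt 1.8), aligned to TAIR10 (STAR 2.5.3a) and counted per gene (HTSeq 0.9.1) by the authors, who normalized the counts by TMM in edgeR 3.24.3 and used limma-trend with every library in a single fit. RSEM 1.2.31 and R 3.5.3 appear in the submitters' processing notes too. The methods name Trizol and the sample labels a column kit for RNA extraction, and which was used was not settled. The expression values deposited by the authors are in log2 CPM, and each of the 19802 genes has 1 mean per group. Their deposited comparison tables hold fold changes, p-values and adjusted p-values, of which only the p-value columns were used, to recover the spread. Depth per library is not given by these tables, and the standard errors carry the precision.

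Log2 differences were taken between the deposited means. A gene's standard error was solved from these differences and the p-values of the 4 contrasts, with total degrees of freedom of 15.0 found from 1986 genes. P-values computed from them stand for limma's moderated test and received one Benjamini-Hochberg adjustment across the 4 pairwise contrasts, as the study's methods were read, and the interaction a separate one. No value per library could be refitted, and p-values measure the spread between libraries of pooled seedlings. DEGs combined an adjusted p under 0.05 with a log2 difference of 1 or more in either direction. Adding 1 CPM changed the folds only, with the adjusted p kept. The recovery was tested on simulated data. Where a symbol belongs to more than 1 gene, the gene was identified by its locus. Gene names were blank for 9374 genes, and 9373 were filled from RefSeq (TAIR10.1), whose coordinates equal those of the table for 19781 genes.

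The genes and lists were chosen with earlier results of these data known. Named are all DEGs, the 10 genes of smallest p below the fold threshold, the 3 genes nearest the threshold on each side, up to 4 called members of each list (for the iron, phosphate and low phosphate root growth lists also the 4 of largest difference), and the neighbours of *CRR* and of the *MAF* cluster. Others were named after their values were seen. Analyses used Python 3.11.15, scipy 1.17.1 and pandas 2.3.3.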

Additional observations from a re-analysis of the deposited data

Results flagged for a closer look

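The interaction term of the model was examined for the DEGs and the named genes of smallest p below the fold threshold. For 9 of them, the difference between CRR OE and Col-0 was not the same in both media. All log2 differences below are CRR OE minus Col-0, and the difference is –Pi minus +Pi. These genes were named for their +Pi difference, which the interaction contains, so its size is not independent of that choice. Of them, 6 were lower or higher in +Pi and did not pass in –Pi, namely *SWEET13* (0.77 in +Pi, -0.23 in –Pi, difference -1.004, adjusted p = 0.00274), *ZIP3* (0.63 in +Pi, -0.016 in –Pi, difference -0.65, adjusted p = 0.00827), AT1G72890 (-0.67 in +Pi, 0.11 in –Pi, difference 0.78, adjusted p = 0.00756), AT3G15450 (-1.26 in +Pi, 0.22 in –Pi, difference 1.49, adjusted p = 0.0224), *MIP1B* (1.15 in +Pi, 0.02 in –Pi, difference -1.13, adjusted p = 0.041) and AT5G18350 (1.43 in +Pi, -0.22 in –Pi, difference -1.65, adjusted p = 0.0441). *GAT1_2.1* (-1.11 in +Pi, 0.54 in –Pi, difference 1.66, adjusted p = 0.00196) narrowly missed the threshold in –Pi (adjusted p = 0.0531). *BXL2* (-0.59 in +Pi, 0.68 in –Pi, difference 1.27, adjusted p = 0.000101) and *DIN10* (-0.70 in +Pi, 0.36 in –Pi, difference 1.06, adjusted p = 0.00184) passed in both media with opposite signs. Other genes named in the report also passed for the interaction and are not listed here. Examples are *TPS8* (interaction adjusted p = 0.000101), *NIA1* (0.000146) and *PER59* (0.00151). The deposited values give no library means, so no sample could be checked for standing apart from its group.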

How the results depend on the processing

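The count of DEGs in +Pi, 31, was 12 (8 higher and 4 lower) with the contrast adjusted alone, 17 at an adjusted p under 0.01, 18 over genes with a mean of at least 0 log2 CPM, 99 (55 higher and 44 lower) with the fold threshold lowered to a log2 difference of 0.5, and 8 (3 higher and 5 lower) with 1 CPM added to the group means. The 298 genes with no fold threshold became 74 at an adjusted p under 0.01 and 26 with the contrast adjusted alone, and 284 over genes with a mean of at least 0 log2 CPM. Centring on the median and taking the standard error from the +Pi sheet changed neither count. Of the DEGs, 15 passed in the same direction in –Pi, and 14 did with each contrast adjusted alone. As alternatives chosen after seeing the data, adjusting the contrast alone left 2 of 6 called genes of the dark and sugar starvation list, 0 of 4 of the iron deficiency list and 2 of 3 of the *FLC* and *MAF* list, and leaving out *CRR*, AT1G64795 and AT1G75945 left 12 of 15 DEGs shared with –Pi. Of the 31 DEGs and the 10 genes of smallest p below the fold threshold, 22 kept their call with the contrast adjusted alone, and the other called genes of the lists were followed under that setting only, in the text. No paired analysis was possible because the deposited columns hold group means without replicate numbers, and leaving out single libraries was not run for the same reason. The median standard error below 0 log2 CPM was 0.35 against 0.093 over all genes, and depth and the spread between libraries cannot be told apart in it.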

Other observations

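Families that the report does not describe were looked up after their members' values had been seen, and are given as values with no test of the family. Members of a family can vary together between libraries, so their counts are not those of independent measurements. Of all genes, 0.975% were called higher, a share that stands beside each count in this paragraph. Of the respiratory burst oxidases, 3 of 8 were higher in CRR OE +Pi and 0 lower, all 8 had a positive difference, and the median log2 difference was 0.20. Beside *RBOHE* these were *RBOHD* at 0.35 (SE 0.088, adjusted p = 0.0158) and *RBOHB* at 0.25 (SE 0.077, adjusted p = 0.0436). Of the plasma membrane proton ATPases, 3 of 9 were higher, *AHA2* and with it *AHA7* at 0.41 (SE 0.11, adjusted p = 0.0214) and *AHA4* at 0.39 (SE 0.11, adjusted p = 0.0366), and the summed level of all 9 was 2683 CPM in Col-0 and 3459 CPM in CRR OE, of which *AHA2* alone made up 1842 and 2495 CPM. Of 14 calcium ATPases all had a positive difference and 3 were higher, *ACA1* at 0.32 (SE 0.068, adjusted p = 0.00436), *ACA10* at 0.27 (SE 0.06, adjusted p = 0.00585) and *ECA2* at 0.21 (SE 0.061, adjusted p = 0.0328). Of 9 SWEET sugar transporters, *SWEET13* and *SWEET14* were higher, the latter by 0.80 (SE 0.16, adjusted p = 0.00359). Among 19 BBX and CONSTANS-like factors, 3 were higher and 0 lower, *MIP1B*, *COL5* at 0.26 (SE 0.061, adjusted p = 0.00904) and *BBX24* at 0.33 (SE 0.093, adjusted p = 0.0296). With the contrast adjusted alone, *RBOHE*, *SWEET13* and *MIP1B* passed, and the other genes named in this paragraph did not (adjusted p of 0.104 to 0.397).

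Of 8 measured genes of nitrate uptake and reduction, 3 were higher in CRR OE in +Pi and 0 lower (against 0.975% of all genes called higher). The nitrate reductase gene *NIA1* was at 0.46 (SE 0.11, adjusted p = 0.0104) in +Pi and -1.07 in –Pi (there adjusted p = 5.07e-06), *NIA2* at 0.40 (SE 0.10, adjusted p = 0.018) and -0.45 (adjusted p = 0.00755), and the nitrate transporter gene *NPF6.3* at 0.51 (SE 0.12, adjusted p = 0.00754) and 0.13 (adjusted p = 0.584). The nitrite reductase gene *NIR1* did not pass in +Pi, at 0.20 (SE 0.095, adjusted p = 0.214). The boron transporter genes *BOR2* (0.31 and -0.48) and *BOR1* (0.20 and -0.26) passed in both media with opposite signs. *NIA1*, *NIA2*, *NPF6.3*, *BOR2* and *BOR1* all lost their +Pi call with the contrast adjusted alone (adjusted p of 0.166 to 0.337). Of the 56 genes that passed in both media with opposite signs, 33 were higher and 23 lower in +Pi. The smallest interaction p was that of AT2G43620, an endochitinase, at 0.68 (SE 0.15, adjusted p = 0.00769) in +Pi and -2.68 in –Pi (interaction adjusted p = 1.38e-06), followed by *AGP30* at -0.20 and 0.99 (interaction adjusted p = 1.38e-06).

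Of 236 cytosolic ribosomal protein genes, 224 had a negative difference in +Pi, with a median log2 difference of -0.081, where 9913 of 19802 genes did. None passed the recomputed limma test, and 10, all lower, had an unadjusted p under 0.05, where 7.68% of all genes did. Genes of one family vary together between libraries, so the count is not that of 236 independent measurements.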
